A study of Mus musculus with 6 samples.

Results

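The D cyclins (Ccnd1, Ccnd2 and Ccnd3), the kinases that they activate (Cdk4 and Cdk6), 4 Cdk inhibitors (Cdkn1a, Cdkn1b, Cdkn2c and Cdkn2d) and the retinoblastoma gene Rb1 were examined in bone marrow macrophages (BMMs) and in the osteoclasts made from them. These 10 genes were taken by symbol from the 49315 genes of an RNA-Seq table, each symbol matched 1 gene identifier, and all 10 passed the filter on low values, 1 TPM or more as the mean of the 6 libraries. TPM is a transcript level scaled by gene length and to the same total in every library, so levels of different genes can be compared. The first group held 3 libraries of wild-type BMMs, labelled as untreated, at day 0, grown in medium with serum and the conditioned medium of CMG14-12 cells, which supplies M-CSF. The other held 3 libraries of wild-type cells, labelled Mature Osteoclast, after 4 days in medium with serum, a smaller share of the same conditioned medium and 75 ng/mL RANKL. All libraries are labelled as biological replicates, but the labels name neither the strain, age or sex of the mice nor the animal or culture behind each library, so the p-values below measure the spread between these libraries. No library came from BMMs kept to day 4 without RANKL, and effects of RANKL, M-CSF supply and time in culture cannot be told apart.

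D cyclins are made when growth factors such as M-CSF act on a cell, and they switch on Cdk4 and Cdk6. These kinases phosphorylate the retinoblastoma protein, which otherwise holds E2F transcription factors silent, and E2F then turns on the genes of S phase. INK4 inhibitors (Cdkn2c encodes p18, Cdkn2d encodes p19) bind Cdk4 and Cdk6, whereas Cip/Kip inhibitors (Cdkn1a encodes p21, Cdkn1b encodes p27) bind cyclin-Cdk complexes more broadly. Osteoclasts are multinucleated cells that form by fusion of macrophage precursors, and mature osteoclasts are regarded as postmitotic.

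Promoter windows of 250 bases before the annotated start were taken from RefSeq (build GRCm38.p6), which gave entries for 7 of the 10 genes, with 2 windows for Ccnd3, Cdkn1a and Cdkn2c. Both strands were searched for the E-box CACGTG bound by Myc and related factors, the E2F motif (TTTCCCGC or TTTGGCGC), the AP-1 motif TGANTCA, the GC box GGGCGG and the p53 response element. The last was sought as 2 adjacent half-sites with no spacer. Up to 1 mismatch was allowed in it, but none at the fixed C and G of each half-site. Among 32817 windows of all genes, 6.02% held the E-box, 1.30% the E2F motif, 6.75% the AP-1 motif, 32.7% the GC box and 0.058% the p53 element. The windows of both kinases and the upstream window of Cdkn1a are shown, since they held the motifs that are rarer among all windows. Capitals mark the E-box in the windows of Cdk4 (chr10:127063285-127063534, plus strand) and Cdk6 (chr5:3343643-3343892, plus strand), and the p53 element in that of Cdkn1a (chr17:29090729-29090978, plus strand).
Cdk4: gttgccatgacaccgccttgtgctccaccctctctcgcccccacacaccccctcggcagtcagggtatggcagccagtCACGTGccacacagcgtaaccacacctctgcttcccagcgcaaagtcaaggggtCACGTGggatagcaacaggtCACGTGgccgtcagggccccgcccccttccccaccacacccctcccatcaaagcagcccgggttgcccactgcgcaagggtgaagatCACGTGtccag
Cdk6: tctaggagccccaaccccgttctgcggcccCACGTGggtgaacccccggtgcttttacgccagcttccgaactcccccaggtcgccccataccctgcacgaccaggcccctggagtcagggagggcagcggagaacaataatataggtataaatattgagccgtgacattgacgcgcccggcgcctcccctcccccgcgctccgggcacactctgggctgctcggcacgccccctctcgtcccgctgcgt
Cdkn1a: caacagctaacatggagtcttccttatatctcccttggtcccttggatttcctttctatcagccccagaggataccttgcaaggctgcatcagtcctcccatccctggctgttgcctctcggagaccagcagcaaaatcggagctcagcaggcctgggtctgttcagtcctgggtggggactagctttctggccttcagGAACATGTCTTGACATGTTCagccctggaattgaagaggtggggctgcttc
The Cdk4 window held 4 E-boxes, 172 to 11 bases before the start, a number reached in 7 windows of all genes (0.0213%). The Cdk6 window held 1 E-box 220 bases before the RefSeq start. That window lies inside Cdk6 as GENCODE places the gene, with its start at 3341485. The p53 element of Cdkn1a lay 51 bases before the upstream of its annotated starts. Cdkn2c (in the upstream of its windows) and Cdkn2d each had 3 GC boxes in a window, Ccnd3 had 2 and 1 in its windows, Cdkn1a had 2 in its second window, and Cdk4 and Cdkn1b had 1 each. No E2F or AP-1 match was found in the windows of these 7 genes. The motifs describe letters in these windows and were not tested for binding.

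The identity of the cultures was checked with marker genes. Osteoclast markers rose in 10 of 10 genes (summed level 333 to 354 TPM in BMM libraries and 38249 to 38837 TPM in osteoclast libraries), led by Atp6v0d2, a proton pump subunit, in BMMs and in osteoclasts by Acp5, which encodes tartrate-resistant acid phosphatase. Macrophage markers fell in 9 of 10 genes (4084 to 4190 TPM and 1494 to 1740 TPM), with Adgre1 the most abundant in BMMs and Csf1r, the M-CSF receptor, in osteoclasts. Neutrophil markers fell in 10 of 10 genes (3049 to 3320 TPM and 20.3 to 33.4 TPM), led in both groups by S100a9, and Elane was at 0 in every osteoclast library. Of 10 stromal and osteoblast markers, 5 passed the filter and 4 rose (7.51 to 7.93 TPM and 114 to 142 TPM), led in both groups by Col1a1. The osteoclast means were 85.6 TPM for Col1a1, 34.0 TPM for Col1a2, 6.09 TPM for Col3a1 and 3.48 TPM for Pdgfrb. Runx2 passed the filter but was not called. Sp7, Alpl, Cxcl12 and Lepr did not pass the filter, with osteoclast means of 0.215, 0.0724, 0.375 and 0.0877 TPM. Bglap, which did not pass the filter, was at 0 in every BMM library and at 0.30, 0.19 and 0 TPM in the osteoclast libraries. B and T cell markers summed to 18.4 to 19.0 TPM in BMMs, where Cd79b led, and to 4.88 to 6.39 TPM in osteoclasts, where Cd4 led, and both of the 2 among 8 that passed the filter fell. None of 6 erythroid markers passed the filter, and their summed level, led by Klf1 in both groups, was at most 0.866 TPM. The sources used here do not give the share of unfused mononuclear cells in the osteoclast libraries. Levels in these libraries may therefore not be those of multinucleated cells alone. The part of unfused and other cells in the differences described below was not tested. In bulk RNA, fewer cells of a type and less RNA per cell cannot be told apart. Osteoclast replicate 2 stood apart in the share of TPM taken by a single small RNA locus, Gm23935, chosen after its values were seen, at 0.423% against 3.71% and 3.52% in the other osteoclast libraries and 5.72% to 7.10% in BMMs. The deposited TPM values keep no record of sequencing depth, so no counting interval is given.

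In osteoclasts, Ccnd1, Ccnd2, Cdk4 and Cdk6 were higher than in BMMs, whereas Ccnd3, Cdkn1a, Cdkn2c, Cdkn2d and Rb1 were lower, and Cdkn1b did not pass the test. Thus 4 of the 10 genes rose and 5 fell at an adjusted p under 0.05 (limma on log2(TPM + 1), Benjamini-Hochberg over 12325 genes), where 68.9% of all genes tested were called, 45.3% as higher and 23.5% as lower. The median log2 fold change of the 10 genes was -0.20, with a range from -0.88 to 0.73, and that of all genes tested was 0.19. None of the 10 was called with an absolute log2 fold change of 1 or more, as 21.2% of all genes were. All 3 osteoclast libraries lay above all 3 BMM libraries for the 4 genes that rose (47.4% of all genes) and below them for the 5 that fell (26.1% of all genes), and 73.5% of all genes had groups apart in either direction. Because 65.8% of all calls were upward, the comparison was repeated after median-ratio scaling, which moved the median of all genes from 0.19 to 0.00 and left 50.1% of calls upward. On that scale 3 of the 10 genes rose (33.7% of all genes) and 5 fell (33.5% of all genes, 67.2% in either direction), with Ccnd1 no longer called. A fold change on log2(TPM + 1) understates the change of low genes, which concerns Ccnd2 above all.

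**Figure D1:**
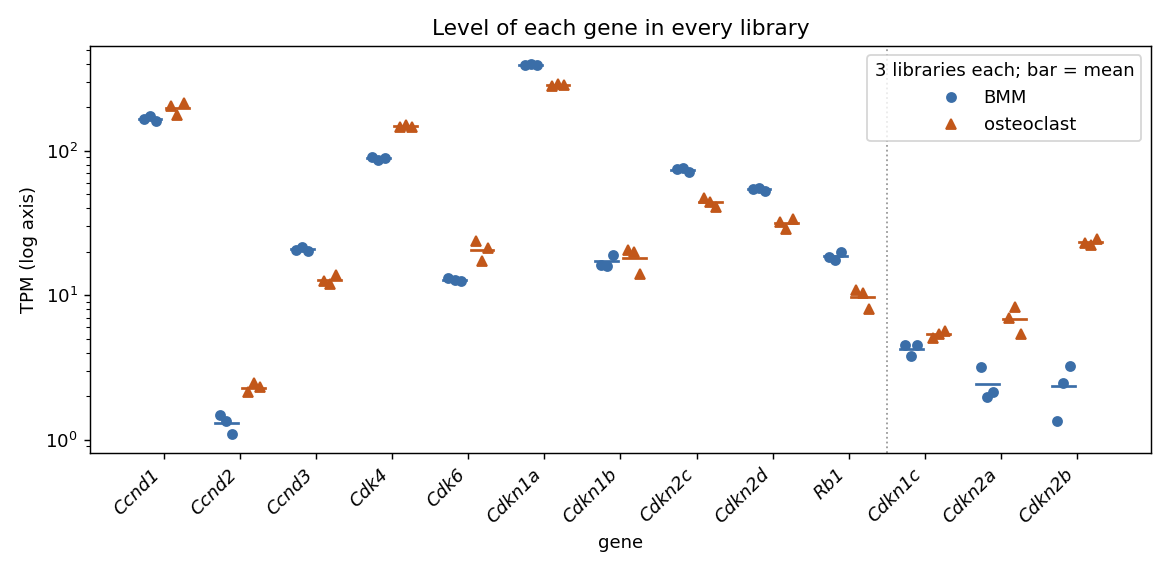
TPM on a log axis of the 10 genes and, right of the dotted line, of Cdkn1c, Cdkn2a and Cdkn2b in each of the 3 BMM (circles) and 3 osteoclast (triangles) libraries, with bars for the group means. Of the 10 genes Cdkn1a was the highest and Ccnd2 the lowest in both groups, and only for Cdkn1b did the groups overlap.

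Among the D cyclins, Ccnd3 fell and the rarest, Ccnd2, rose, while the rise of the most abundant, Ccnd1, was not called under every scaling. Ccnd1, the D cyclin classically induced by growth factors, lies on chromosome 7 (chr7:144929931-144939925, minus strand, GENCODE vM21 on GRCm38; ENSMUSG00000070348). It measured 166, 173 and 160.4 TPM in BMM replicates 1 to 3, and 203, 178 and 215 TPM in osteoclast replicates 1 to 3. The lowest osteoclast library stood just above the highest BMM library. The means were 167 ± 6.54 TPM and 199 ± 19.0 TPM (SD, n = 3 libraries each). On the log2 scale the change in limma was 0.25 ± 0.08 (standard error, adjusted p = 0.018), which is 0.06 above the median of all genes. After median-ratio scaling the value was 0.04 (95% confidence interval -0.15 to 0.23, adjusted p = 0.70 from limma), and the call was kept in 9 of 15 alternative fits. It was lost without BMM replicate 1 (0.25, adjusted p = 0.056), BMM replicate 3 (0.22, adjusted p = 0.071) or osteoclast replicate 1 (0.23, adjusted p = 0.062, all from limma). Exons of Oraov1 on the opposite strand overlap 23.4% of the exonic bases of Ccnd1, and the level of Oraov1 was 7.65 TPM before and 8.46 TPM after differentiation.

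Ccnd2 (ENSMUSG00000000184, chr6:127125162-127152193, minus strand) encodes the D cyclin best known from lymphocytes and the ovary. Its level was 1.48, 1.34 and 1.09 TPM in the BMM libraries and 2.13, 2.46 and 2.30 TPM in the osteoclast libraries. Every osteoclast library lay above every BMM library, although the gene stayed the lowest of the 10 in both groups. Mean TPM was 1.31 ± 0.198 and 2.30 ± 0.163 (SD, n = 3 libraries each), a ratio of 1.76, and limma gave 0.52 ± 0.11 (standard error) on the log2 scale at an adjusted p = 0.0037. With a pseudocount of 0.1 TPM the log2 fold change was 0.78, and after quantile normalization it was 0.30 and no longer passed the test (adjusted p = 0.054 from limma).

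Ccnd3 (ENSMUSG00000034165, chr17:47505051-47599691, plus strand) encodes the D cyclin that predominates in many blood lineages. Its TPM values were 20.4, 21.6 and 20.4 in BMMs and 12.6, 12.0 and 13.8 in osteoclasts. The groups were well apart, with each osteoclast library below all BMM libraries. Ccnd3 fell from 20.8 ± 0.671 TPM to 12.8 ± 0.923 TPM (SD, n = 3 libraries each), and limma gave a log2 fold change of -0.66 ± 0.07 (standard error) at an adjusted p = 8.0e-05, and it was called lower in 15 of 15 alternative fits. Bysl, a ribosome assembly gene whose exons overlap 4.11% of the exonic bases of Ccnd3 on the opposite strand, went from 13.5 to 32.8 TPM, and whether counting used the strand was not stated.

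The proportions of the 3 D cyclins differed between the groups. Ccnd1 made up 88.3% ± 0.0868 of their summed TPM in BMMs and 92.9% ± 0.397 in osteoclasts (SD, n = 3 libraries each). Ccnd3 made up 11.0% ± 0.174 and 6.01% ± 0.236, and Ccnd2 0.691% ± 0.0951 and 1.08% ± 0.168. The groups did not overlap in any of these shares. The log2 fold changes of Ccnd1 and Ccnd3 differed by 0.91, those of Ccnd2 and Ccnd3 by 1.18 and those of Ccnd1 and Ccnd2 by -0.27, or by -0.53 with a pseudocount of 0.1 TPM. In each of these pairs the exact two-sided permutation test gave p = 0.1, the smallest that 3 libraries against 3 allow, or 0.15 adjusted over the 6 pairs of related genes compared.

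Both partner kinases of the D cyclins were higher in osteoclasts. Cdk4 (ENSMUSG00000006728, chr10:127063534-127067920, plus strand), whose window with 4 E-boxes is shown above, measured 90.4, 86.4 and 88.6 TPM in BMMs and 145, 151 and 147 TPM in osteoclasts. The libraries of a group were close together and the groups lay far apart. Cdk4 rose from 88.5 ± 1.98 TPM to 147 ± 3.01 TPM (SD, n = 3 libraries each), and limma gave a log2 fold change of 0.73 ± 0.05 (standard error) at an adjusted p = 3.6e-06, the largest rise among the 10 genes with a pseudocount of 1 TPM. After median-ratio scaling it was 0.52 (adjusted p = 8.5e-05 from limma). Exons of Tspan31, a tetraspanin gene on the opposite strand, overlap 19.7% of the exonic bases of Cdk4, and Tspan31 itself stood at 106 and 105 TPM in the respective groups.

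Cdk6 (ENSMUSG00000040274, chr5:3341485-3531008, plus strand) encodes the kinase that shares D cyclins with Cdk4 and is prominent in blood cells. It measured 13.1, 12.7 and 12.6 TPM in the BMM libraries and 23.6, 17.2 and 21.1 TPM in the osteoclast libraries. Osteoclast replicate 2 was the lowest of its group but still above all BMM libraries. Cdk6 rose from 12.8 ± 0.258 TPM to 20.6 ± 3.24 TPM (SD, n = 3 libraries each), and limma gave a log2 fold change of 0.63 ± 0.11 (standard error) at an adjusted p = 0.0011, and it was called in 15 of 15 alternative fits. Cdk4 made up 87.3% ± 0.170 of the summed TPM of both in BMMs and 87.7% ± 1.91 in osteoclasts (SD, n = 3 libraries each), and the groups overlapped. The log2 fold changes of Cdk4 and Cdk6 differed by 0.10 (exact permutation test, p = 0.7, adjusted p = 0.8 over the 6 pairs), a value that was -0.04 without osteoclast replicate 2.

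**Figure D2:**
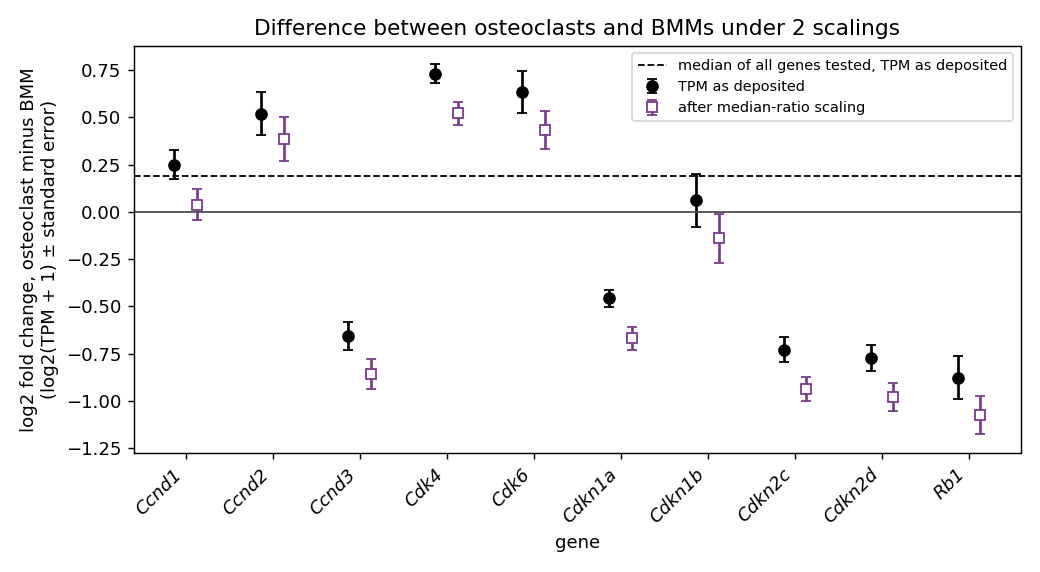
Log2 fold change of each of the 10 genes in osteoclasts against BMMs with its standard error, on deposited TPM (filled) and after median-ratio scaling (open). The horizontal lines mark no change (solid) and the median of all 12325 genes, 0.19 (dashed), and Ccnd1 lies at 0.25 before and 0.04 after scaling.

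Of the Cip/Kip inhibitors, Cdkn1a fell and Cdkn1b did not pass the test. Cdkn1a (ENSMUSG00000023067, chr17:29090976-29100727, plus strand) encodes p21, a target of p53 that arrests the cycle after DNA damage. The upstream of its 2 promoter windows, which alone holds a p53 element, is shown above. Which of its starts was used in these cells was not tested. Its level was 389.5, 395 and 391 TPM in BMMs and 279, 291 and 286 TPM in osteoclasts. It was the most abundant of the 10 genes in both groups, with little spread and no overlap. Cdkn1a fell from 392 ± 3.04 TPM to 285 ± 6.30 TPM (SD, n = 3 libraries each), and limma gave a log2 fold change of -0.46 ± 0.04 (standard error) at an adjusted p = 3.2e-05. After median-ratio scaling it was -0.67.

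Cdkn1b (ENSMUSG00000003031, chr6:134920401-134925513, plus strand) encodes p27, an inhibitor that accumulates in quiescent cells and is controlled largely at the level of the protein. It measured 16.3, 16.1 and 19.1 TPM in BMMs and 20.4, 19.9 and 14.1 TPM in osteoclasts. Osteoclast replicate 3 was the lowest of all 6 libraries, and the other osteoclast libraries were the highest. The means were 17.2 ± 1.68 TPM and 18.1 ± 3.52 TPM (SD, n = 3 libraries each), with a log2 fold change of 0.06 (95% confidence interval -0.27 to 0.39, adjusted p = 0.71 from limma). After median-ratio scaling it was -0.14 (95% confidence interval -0.44 to 0.16), so neither a rise nor a fall of this size was resolved. The log2 fold changes of Cdkn1a and Cdkn1b differed by -0.52 (exact permutation test, p = 0.1, the smallest possible, and 0.15 adjusted over the 6 pairs).

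Both INK4 inhibitors among the 10 genes fell. Cdkn2c (ENSMUSG00000028551, chr4:109660876-109667189, minus strand) encodes p18, and its TPM was 74.9, 75.4 and 70.8 in BMMs and 47.2, 44.3 and 41.0 in osteoclasts. No osteoclast library came near the lowest BMM library. It fell from 73.7 ± 2.54 TPM to 44.2 ± 3.10 TPM (SD, n = 3 libraries each), and limma gave a log2 fold change of -0.73 ± 0.07 (standard error) at an adjusted p = 2.4e-05. Cdkn2d (ENSMUSG00000096472, chr9:21288410-21291407, minus strand) encodes p19, and its TPM was 54.6, 55.3 and 53.1 in BMMs and 31.9, 28.8 and 33.6 in osteoclasts. Again the groups lay well apart. It fell from 54.3 ± 1.15 TPM to 31.4 ± 2.39 TPM (SD, n = 3 libraries each), and limma gave a log2 fold change of -0.77 ± 0.07 (standard error) at an adjusted p = 2.0e-05. The log2 fold changes of the pair differed by 0.04 (exact permutation test, p = 0.8, adjusted p = 0.8 over the 6 pairs), and by -0.02 without osteoclast replicate 2.

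Rb1 (ENSMUSG00000022105, chr14:73183673-73325822, minus strand) encodes the retinoblastoma protein, the substrate that the cyclin D kinases act on. It measured 18.4, 17.7 and 19.8 TPM in BMMs and 10.9, 10.3 and 7.998 TPM in osteoclasts. All osteoclast libraries were lower than all BMM libraries. Rb1 fell from 18.6 ± 1.09 TPM to 9.75 ± 1.54 TPM (SD, n = 3 libraries each), and limma gave a log2 fold change of -0.88 ± 0.11 (standard error) at an adjusted p = 1.9e-04, the largest fall among the 10 genes. After median-ratio scaling it was -1.07. Rcbtb2 and Lpar6 overlap 8.11% and 6.78% of the exonic bases of Rb1 on the opposite strand and had lower means in osteoclasts, at 44.8 and 20.2 TPM for Rcbtb2 and 15.98 and 8.81 TPM for Lpar6. How far reads of these genes enter the value of Rb1 was not tested.

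Of the 3 remaining INK4 and Cip/Kip inhibitors, Cdkn2a and Cdkn2b rose from low levels, and the rise of Cdkn1c was not called under every scaling. Cdkn2b, an INK4 gene that encodes p15 and is known as a target of TGF-β signaling, measured 1.36, 2.48 and 3.27 TPM in BMMs and 23.2, 22.4 and 24.4 TPM in osteoclasts. Its lowest osteoclast library stood far above its highest BMM library. Cdkn2b (ENSMUSG00000073802, chr4:89306299-89311039, minus strand) rose from 2.37 ± 0.958 TPM to 23.4 ± 1.01 TPM (SD, n = 3 libraries each), and limma gave a log2 fold change of 2.89 ± 0.19 (standard error) at an adjusted p = 3.7e-06. Its neighbor Cdkn2a (ENSMUSG00000044303, chr4:89274471-89294653, minus strand), which encodes p16 and the alternative product ARF, measured 3.17, 1.97 and 2.13 TPM in BMMs and 6.95, 8.33 and 5.43 TPM in osteoclasts. Cdkn2a rose without overlap of the groups, and limma gave 1.21 ± 0.18 (standard error) on the log2 scale at an adjusted p = 3.8e-04. Cdkn1c, which encodes the Cip/Kip inhibitor p57, measured 4.51, 3.81 and 4.52 TPM in BMMs and 5.08, 5.38 and 5.64 TPM in osteoclasts, with a log2 fold change of 0.27 (adjusted p = 0.032 from limma) that did not pass the test after median-ratio scaling (0.10, adjusted p = 0.39 from limma), nor in 8 further alternative fits. The 2 INK4 genes that rose thus reached 23.4 and 6.90 TPM in osteoclasts, below the 44.2 and 31.4 TPM of the 2 INK4 genes that fell. The value of Cdkn2a is that of the whole gene and does not separate p16 from ARF.

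Adding the genes of a class gave the balance of RNA between cyclins, kinases and inhibitors, which is described here without a test. For the D cyclins the sum was 189 ± 7.26 TPM in BMMs and, in osteoclasts, 214 ± 19.7 TPM (SD, n = 3 libraries each). Their groups overlapped (196 TPM in BMM replicate 2 and 192 TPM in osteoclast replicate 2), and after median-ratio scaling the order of the means turned, with 203 ± 10.7 and 198 ± 18.7. The 2 kinases summed to 101 ± 2.18 TPM and 168 ± 0.239 TPM, or 109 ± 1.97 and 156 ± 4.82 after scaling. The 4 inhibitors summed to 537 ± 4.33 TPM and 379 ± 4.83 TPM, or 577 ± 12.7 and 351 ± 12.7 after scaling, and with Cdkn1c, Cdkn2a and Cdkn2b added to 546 ± 3.60 TPM and 415 ± 5.21 TPM. Summed inhibitor RNA was thus lower in osteoclasts with either set of genes. Relative to Cdk4 and Cdk6, the 4 inhibitors stood at 5.17, 5.47 and 5.28 in BMMs and 2.25, 2.29 and 2.23 in osteoclasts. The ratio of Cdkn2c and Cdkn2d to their target kinases was 1.26 ± 0.0491 in BMMs and 0.450 ± 0.0180 in osteoclasts. It leaves out the INK4 genes that rose, Cdkn2b (2.37 to 23.4 TPM) and Cdkn2a (2.42 to 6.90 TPM), which would make the fall smaller. D cyclins per kinase stood at 1.86 ± 0.102 and 1.27 ± 0.116, and Cip/Kip inhibitors per D cyclin at 2.172 ± 0.0806 and 1.43 ± 0.167. Every one of these ratios was lower in all osteoclast libraries than in any BMM library, and a ratio within a library is left as it is by any scaling that uses 1 factor per library, such as median-ratio scaling. RNA ratios do not give the ratios of the proteins.

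**Figure D3:**
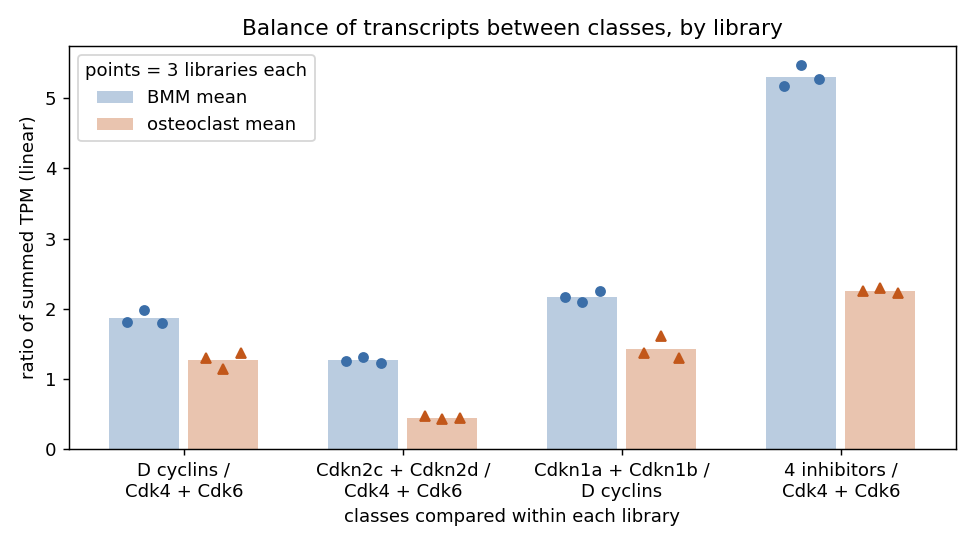
Ratios of summed TPM between classes of the pathway in each of the 3 BMM and 3 osteoclast libraries, with bars for the group means. The ratio of Cdkn2c and Cdkn2d to Cdk4 and Cdk6 lay at 1.22 to 1.32 in BMMs and 0.436 to 0.470 in osteoclasts. Cdkn1c, Cdkn2a and Cdkn2b are not included in any of the ratios.

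Within the 4 inhibitors, Cdkn1a made up 73.0% ± 0.245 of the summed TPM in BMMs and 75.3% ± 1.41 in osteoclasts (SD, n = 3 libraries each). Cdkn2c made up 13.7% ± 0.408 and 11.7% ± 0.775, Cdkn2d 10.1% ± 0.153 and 8.30% ± 0.734, and Cdkn1b 3.19% ± 0.330 and 4.78% ± 0.890. The direction for Cdkn1a turned when all 7 inhibitors were summed. Its share was then 71.8% ± 0.187 in BMMs and 68.8% ± 1.23 in osteoclasts, while that of Cdkn2b was 0.434% ± 0.176 and 5.63% ± 0.311.

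In order of their levels, Cdkn1a, Ccnd1, Cdk4, Cdkn2c and Cdkn2d were the 5 highest of the 10 genes in both groups, and Ccnd2 was the lowest. In BMMs, Ccnd3, Rb1, Cdkn1b and Cdk6 followed the first 5 in that order, and only Rb1 and Cdkn1b overlapped in their range over libraries. In osteoclasts, Cdk6 moved ahead and was followed by Cdkn1b, Ccnd3 and Rb1, and only Cdk6 and Cdkn1b overlapped. Among all genes at 1 TPM or more as the mean of the 6 libraries, Cdkn1a stood at percentile 97.5 in BMMs and 96.0 in osteoclasts, and Ccnd1 at 94.0 and 94.2. Rb1 went from percentile 56.6 to 36.5 and Cdkn2d from 81.1 to 66.0.

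The other genes of the pathway were taken from lists of their roles, 99 genes in all. Their counts stand beside the shares of all genes tested, of which 45.3% rose and 23.5% fell, or 33.7% and 33.5% after median-ratio scaling. Among 12 pocket protein, E2F and DP genes, 3 rose and 6 fell (median log2 fold change -0.15), or 1 and 7 after median-ratio scaling. E2f7, an atypical repressor E2F, fell from 3.90 ± 0.157 to 2.10 ± 0.308 TPM and E2f2, an activator E2F, from 19.6 ± 0.339 to 12.3 ± 0.214 TPM (SD, n = 3 libraries each). E2f3, a further activator, rose from 12.3 ± 0.712 to 18.1 ± 1.39 TPM. Tfdp1, the DP partner of E2F, rose from 70.0 ± 1.43 to 87.8 ± 2.171 TPM (log2 fold change 0.32) but was not called after median-ratio scaling (0.11). The relatives of Rb1, named after their values were seen, also fell, Rbl2 from 25.3 ± 0.258 to 16.2 ± 1.30 TPM (log2 fold change -0.61) and Rbl1 from 24.0 ± 0.280 to 18.7 ± 2.06 TPM (-0.35), so all 3 pocket protein genes were lower in osteoclasts.

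For the next lists the shares of all genes are again 45.3% higher and 23.5% lower, or 33.7% and 33.5% after median-ratio scaling. Among 8 later cyclins and their kinases, which act from the start of S phase to mitosis, 2 rose and 0 fell in limma (1 was lower at an unadjusted p under 0.05), but 0 rose and 2 fell after median-ratio scaling (0 and 3 at an unadjusted p under 0.05). Leaving out 1 library gave 1 rise without each BMM replicate in turn, where 5084, 5045 and 5157 of all genes rose. It gave 4 rises without osteoclast replicate 3, where 5756 of all genes rose, against 5585 with all 6 libraries. The 2 that rose with all 6 libraries were Ccnf (53.4 ± 0.680 to 67.6 ± 5.13 TPM), a cyclin that directs protein destruction, and the mitotic cyclin Ccnb1 (46.3 ± 0.435 to 51.8 ± 1.49 TPM). The log2 fold change of Ccnb1 was 0.16 before and -0.05 after median-ratio scaling. The list of the Cdk-activating kinase and the Cdc25 phosphatases held 8 genes, with the inhibitory kinases Wee1 and Pkmyt1 added. Of these, 4 rose and 1 fell, or 2 and 1 after scaling. Without BMM replicate 1 or osteoclast replicate 1, 2 rose, where 5084 and 5082 of all genes rose. Pkmyt1 rose from 33.5 ± 3.57 to 48.7 ± 4.61 TPM, Cdc25a, a phosphatase that activates Cdks, rose from 5.85 ± 0.0964 to 8.65 ± 0.393 TPM, and Cdc25b fell from 53.1 ± 1.48 to 39.8 ± 1.30 TPM. Cdk7, the catalytic subunit of the activating kinase, measured 7.69 ± 0.158 and 9.75 ± 1.56 TPM (log2 fold change 0.30, adjusted p = 0.047 from limma) and lost its call in 10 alternative fits. Of 13 genes for the turnover of D cyclins and inhibitors, 7 rose and 0 fell in limma (1 was lower at an unadjusted p under 0.05), or 3 and 3 after scaling, where 45.3% of all genes rose. Cks2, a Cdk subunit, rose from 74.1 ± 2.92 to 115 ± 11.2 TPM and the ubiquitin ligase adaptor Ddb1 from 199 ± 3.48 to 287 ± 27.2 TPM. The smallest rises were those of Fbxo31 (11.6 ± 0.0961 to 13.6 ± 0.995 TPM), which targets cyclin D1, and of the cullin gene Cul4a (37.9 ± 0.782 to 46.9 ± 2.14 TPM), and neither was called after median-ratio scaling.

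Among p53 and its targets, the list that holds regulators and neighbors of Cdkn1a in that response, 5 of 15 genes rose and 8 fell (median log2 fold change -0.19), or 5 and 10 after scaling. Of all genes tested, 45.3% rose and 23.5% fell, or 33.7% and 33.5% after scaling. Sesn1, a stress-responsive sestrin, fell from 185 ± 3.68 to 48.9 ± 2.173 TPM (log2 fold change -1.90) and the antiproliferative gene Btg2 from 15.8 ± 0.719 to 5.60 ± 1.45 TPM (-1.37). In contrast, Pmaip1, which encodes the proapoptotic protein Noxa, rose from 4.92 ± 0.563 to 40.9 ± 6.12 TPM (2.82) and the nuclease gene Aen from 12.0 ± 0.260 to 24.6 ± 1.69 TPM (0.98). Trp53 itself, named after its values were seen, rose from 42.5 ± 1.11 to 72.7 ± 1.28 TPM (0.76), while Cdkn1a fell. Without BMM replicate 2 there were 5 falls in this list, where 2566 of all genes fell, against 2901 with all 6 libraries.

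Of 22 S phase genes, most of them targets of E2F, 6 rose and 3 fell (median log2 fold change 0.13), or 2 and 5 after scaling. Without osteoclast replicate 2, 10 rose, where 5712 of all genes rose, against 5585 with all 6 libraries. With all 6 libraries, the shares of all genes were 45.3% higher and 23.5% lower, or 33.7% and 33.5% after scaling. Cdt1, a replication licensing factor, rose from 51.3 ± 0.518 to 108 ± 6.87 TPM (1.06) and the helicase gene Mcm6 from 107 ± 1.81 to 151 ± 5.21 TPM (0.48). Pcna, the sliding clamp of DNA polymerases, fell from 578 ± 4.09 to 343 ± 11.8 TPM (-0.75) and Gins2, a part of the replicative helicase, from 22.5 ± 0.569 to 16.8 ± 0.683 TPM (-0.40). Among 18 mitosis genes, 5 rose and 8 fell (median log2 fold change -0.14), or 2 and 11 after scaling, beside those same shares of all genes (45.3% and 23.5%, or 33.7% and 33.5% after scaling). The checkpoint kinase gene Bub1 rose from 17.8 ± 0.669 to 28.3 ± 3.52 TPM (0.63), and Ube2c, which serves the anaphase-promoting complex, from 71.0 ± 1.83 to 93.7 ± 5.50 TPM (0.39). Nusap1, a spindle protein gene, fell from 27.97 ± 1.10 to 21.8 ± 4.54 TPM (-0.37), and Mki67, the proliferation marker, from 55.1 ± 1.25 to 43.5 ± 8.03 TPM (-0.35), and each of these falls lost its call in 5 alternative fits. The count of 8 falls among mitosis genes was 2 without BMM replicate 1 or 2, 3 without BMM replicate 3 and 5 without osteoclast replicate 3. In these fits 2489, 2566, 2487 and 2967 of all genes fell, in the same order, against 2901 with all 6 libraries.

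**Figure D4:**
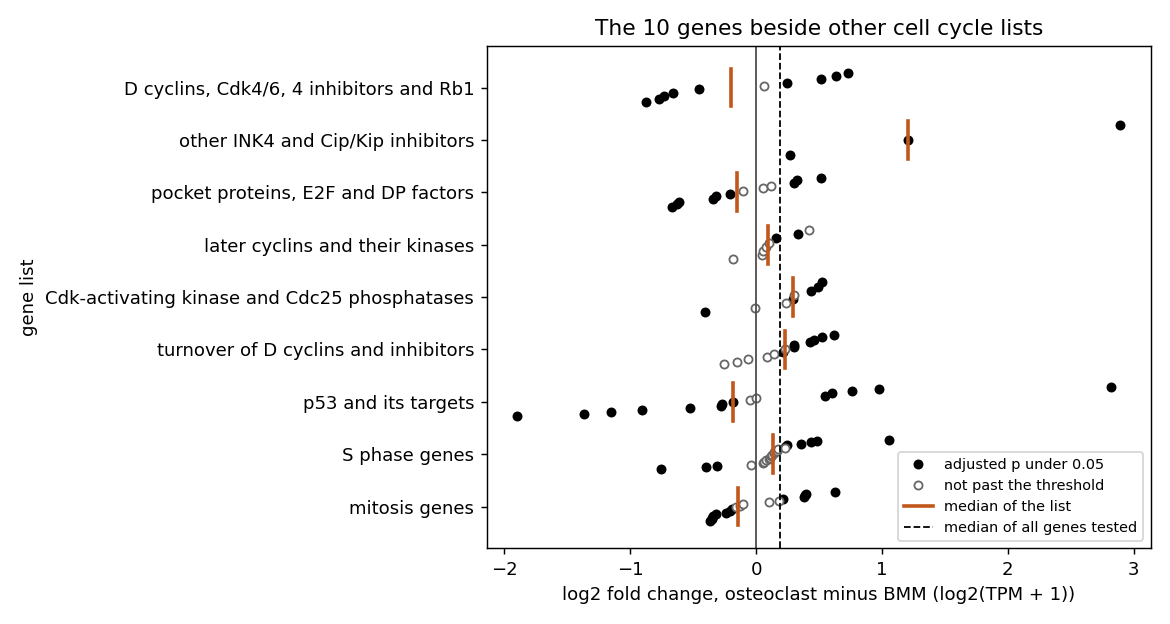
Log2 fold change in osteoclasts against BMMs of each gene in the 10-gene group and in the pathway lists, with 1 point per gene, filled where the adjusted p was under 0.05, and a bar at the median of the list. The dashed line marks the median of all 12325 genes, 0.19, and the medians of the lists run from -0.20 to 1.21.

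The genes whose log2 levels over the 6 libraries, centered on each gene's mean, lay nearest by Euclidean distance to 5 of the 10 genes were sought among all genes tested. Nearest to Ccnd1 were the splicing gene Sf3b4 (distance 0.0693) and Cnst (0.0805), and nearest to Ccnd2 were Id3 (0.0722), an inhibitor of basic helix-loop-helix factors, and the ubiquitin-conjugating enzyme gene Ube2s (0.0977). For Cdk6 these were Usp31 (0.0437) and Amot (0.0598), and for Cdkn1a the dehydrogenase gene Aldh7a1 (0.0361) and Mkrn1 (0.0505). Cdkn2c was nearest to Cds1 (0.0835) and to the Src family kinase gene Lyn (0.0843). None of these 10 neighbors was another of the 10 cell cycle genes. With so few neighbors taken from all genes tested, this says little about whether the 10 genes vary together. Read in the same orientation, the longest transcript of each of the 10 cell cycle genes shared no stretch of 100 bases with transcripts of other genes. The opposite strand was not part of this search, and the exon overlaps given above lie on it.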

How the data were processed

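RNA-Seq of 3 BMM libraries (day 0) and 3 osteoclast libraries (day 4, 75 ng/mL RANKL) was analysed. According to the submitters' processing notes, bcl2fastq 2.17, Trimmomatic 0.36 and STAR 2.5.2b were used with the mouse build mm10. The authors tested gene hits with DESeq2 and deposited TPM values of each library. The sources used here do not give the counting tool or its strand setting, and reads from antisense or overlapping genes may be shared. Sequencing depth is unknown.

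Deposited TPM values were tested without rescaling on log2(TPM + 1) with limma 3.58.1 (R 4.3.3), two-sided, with moderation by empirical Bayes along the intensity trend. Benjamini-Hochberg adjustment ran over the 12325 genes whose mean reached 1 TPM, with 0.05 as the limit. The 6 pairs of related genes were compared with exact two-sided permutation tests. Of these tests, only the limma fit was tried on simulated data. Few genes changed there, evenly in both directions, so that trial does not bear on the upward shift of the deposited values. Tried as alternatives were other pseudocounts (0.1 and 0.5 TPM), other filters (none, and 5 TPM), 3 scalings (median-ratio, quantile, and rescaling after the 20 most abundant and the mitochondrially encoded genes were removed), a fit with no trend, a replicate block, leaving out each library, a log2 fold change of at least 1, and, for the shares of inhibitors, 3 more genes in the sum. The alternatives for the pairs and for the summed levels were added after the data were seen.

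The members and lists were chosen with earlier results of these data known. Genes were named by rule: the 10 genes, the 3 other inhibitors, the 2 highest and 2 lowest changes called in each list, the 2 nearest patterns of 5 of the genes, and the most abundant gene of each marker list in each group. Elane, the stromal and osteoblast markers other than Col1a1, Rbl1, Rbl2, Trp53, Gm23935 and the genes with overlapping exons were named outside this rule. Coordinates came from GENCODE vM21 on GRCm38. Promoter sequences came from RefSeq on GRCm38.p6, which matched 7 of the 10 genes. Ccnd1, Ccnd2 and Rb1 had no entry. Python 3.11.15 was used with SciPy 1.17.1, NumPy 2.4.6 and pandas 2.3.3 for tables and matplotlib 3.10.9 for plots.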

Additional observations from a re-analysis of the deposited data

How the results depend on the processing

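Ccnd3, Cdk4, Cdk6, Cdkn1a, Cdkn2c, Cdkn2d and Rb1 kept their direction and stayed past the threshold in all 15 alternative fits run for each. For Ccnd1 the log2 fold change was 0.038 after median-ratio scaling, 0.032 after quantile normalization and 0.078 after rescaling without mitochondrially encoded and the 20 most abundant genes, none of them past the threshold, and 0.19 to 0.33 with 1 library left out. Ccnd2 was at 0.30 and not called after quantile normalization. Cdkn1b turned to -0.14, -0.15 and -0.10 under these 3 scalings and ranged from -0.029 without osteoclast replicate 1 (and -0.011 without osteoclast replicate 2) to 0.22 with 1 library left out. The number of the 10 genes called higher was 2 after quantile normalization, where 4090 of 12325 genes were higher and 4259 lower. It was 3 to 4 with 1 library left out, and the number called lower was 5 in all of these fits. With a minimum of 1 for the size of the log2 fold change, 0 of the 10 genes were higher and 0 lower, against 1673 and 941 of all genes and 4 and 3 of the genes in the pathway lists. Of 99 genes in the pathway lists, 35 were higher and 26 lower, against 45.3% and 23.5% of all genes tested. These counts were 17 and 39 after median-ratio scaling (33.7% and 33.5% of all genes). After quantile normalization they were 20 and 40, beside 4090 and 4259 of all 12325 genes. After rescaling they were 22 and 33, beside 4367 and 3778 of all 12278 genes. With 1 library left out, 28 to 41 of them were higher and 15 to 25 lower, with 15 lower without BMM replicate 2 and 16 without BMM replicate 1, and 5045 to 5756 of all genes were higher and 2487 to 2967 lower. The difference in the share of Cdk4 was 0.408 percentage points and ranged from -0.612, without osteoclast replicate 2, to 1.28. With all 7 inhibitors summed, the differences in share were -2.96 points for Cdkn1a, -2.84 for Cdkn2c and -2.35 for Cdkn2d. Without osteoclast replicate 2, the difference of the log2 fold changes turned to -0.038 for Cdk4 and Cdk6 and to -0.018 for Cdkn2c and Cdkn2d, and these differences reached 0.21 and 0.14 with another library left out. The difference in summed TPM of the D cyclins, 25.2, turned to -4.50 after median-ratio scaling, an alternative chosen after seeing the data. The cause of these changes was not tested. Same-numbered libraries did not deviate together (r = -0.049, -0.0028 and -0.068 over 12325 genes, which are not independent). Over all combinations of a BMM and an osteoclast library, r ranged from -0.068 to 0.104. This check cannot exclude that same-numbered libraries shared an animal, which the labels do not name, so pairing is not known. With the replicate number as a block, 4 of the 10 genes were higher and 5 lower, as without it, with Ccnd1 at 0.25 (adjusted p = 0.035 from limma) and 5502 of all genes higher and 2821 lower. TPM keeps no depth, so how far depth limits the low values of Ccnd2 is unknown.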
